A study of Mus musculus with 4 samples.

Results

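The genes described here are 10 brakes and gates of the G1 phase of the cell cycle, taken from the deposited table of 24084 gene rows by symbol: the CDK inhibitors Cdkn1a, Cdkn1b, Cdkn1c, Cdkn2b and Cdkn2c, the D-type cyclins Ccnd1, Ccnd2 and Ccnd3, and the pocket protein genes Rb1 and Rbl2. All 10 passed the filter on low counts that left 12920 genes for testing. In a resting cell, pocket proteins hold E2F transcription factors in check and keep replication genes silent. Growth signals raise D-type cyclins, which activate CDK4 and CDK6 to phosphorylate the pocket proteins. INK4 inhibitors bind CDK4 and CDK6 themselves, whereas Cip/Kip inhibitors bind cyclin-CDK complexes more widely. Hair follicle stem cells of the bulge rest for long periods and divide briefly when a new hair cycle starts.

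RNA was sequenced from 4 libraries of sorted hair follicle stem cells of C57BL/6 mice aged 7 to 10 weeks, 4 days after depilation of the back skin, a procedure that starts a new growth phase. The 2 WT libraries (replicates A and C) came from mice that keep regulatory T cells. The 2 Foxp3-DTR libraries (replicates C and D) came from mice in which Foxp3-expressing cells make the diphtheria toxin receptor, so that toxin depletes regulatory T cells throughout the body. Every mouse, WT included, received diphtheria toxin intraperitoneally at 15 ng/g. The comparison asks how expression in the stem cells differs when regulatory T cells are missing. Whether the libraries are of different animals is not stated in the sources used here, and the p-values below therefore reflect only how far these libraries spread, which may be technical.

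Gene counts summed to between 13911765 and 15923154 per library. Foxp3 was not counted in any library (0 counts each, an upper limit of 0.213 CPM, meaning counts scaled to library size by TMM), so the sorted cells do not check the depletion. The basal and bulge markers Krt5, Krt15, Cd34 and Lgr5 were present in every library, with Krt15 between 7255 and 11753 CPM. Leukocyte markers summed to between 1.41 and 12.2 CPM over the 11 of 13 listed genes in the table, with the highest sum in WT A and with Cd4 and Itgax at 0 counts throughout. Suprabasal keratinocyte markers, 10 of 11 listed genes in the table, summed to 10281 (A) and 1794 CPM (C) in WT, against 1971 (C) and 8587 CPM (D) in Foxp3-DTR. Basal and bulge markers (9 genes) summed to 33076 (A) and 33955 CPM (C) in WT, against 27278 (C) and 31618 CPM (D) in Foxp3-DTR. Of these genes, Cd34 and Itga6 were higher in both Foxp3-DTR libraries than in both WT libraries, and Krt5, Sox9, Lhx2 and Nfatc1 were lower. Krt14, Krt15 and Lgr5 overlapped. Fibroblast markers summed to 39.99 (A) and 53.4 CPM (C) in WT, against 27.9 (C) and 31.8 CPM (D) in Foxp3-DTR. Lum and Dpt were at 0 counts. Both sums were lower in both Foxp3-DTR libraries, and edgeR called no gene of either list. The fibroblast sum was mostly Col1a1 and Col1a2, which were lower in both Foxp3-DTR libraries than in both WT libraries. The scarcer Pdgfra and Dcn, each at most 3.45 CPM, were higher in both Foxp3-DTR libraries. The part of cell make-up in the group differences was not tested. Melanocyte markers summed to between 96.1 and 140.1 CPM, mostly Mitf, which overlapped between the groups, as did Dct. The scarcer Pmel, Tyrp1, Tyr and Mlana, each at most 8.57 CPM, were higher in both Foxp3-DTR libraries. Endothelial markers summed to at most 1.66 CPM with Cdh5, Kdr and Tie1 at 0 counts. Sebaceous gland markers summed to 2092 CPM in WT A and to between 352 and 514 CPM in the other libraries. Xist was at 861 and 2482 CPM in the WT libraries but at most at 1.86 CPM in Foxp3-DTR, while 4 Y-linked genes summed to 0 CPM in WT and to 319 and 260 CPM in Foxp3-DTR. Group, sex and the title codes DEP2 (WT) and DEP3 (Foxp3-DTR) cannot be told apart. All 10 genes are autosomal.

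By the quasi-likelihood test of edgeR, adjusted over all genes by Benjamini and Hochberg, 0 of the 10 genes passed the threshold of 0.05, where 1.25% of all tested genes did. At an unadjusted p under 0.05 there were 4 of 10, against 14.6% of all tested genes: Cdkn1c with a higher level in Foxp3-DTR, and Ccnd1, Ccnd2 and Cdkn2c with lower levels. DESeq2 called 3 of 10 lower (Ccnd1, Ccnd2 and Cdkn2c) and 0 higher, where it called 3.97% of all genes lower. Limma-voom called 0 of 10. The 2 groups did not overlap in 6 of 10 genes, the 4 above with Rb1 and Rbl2, against 45.7% of all tested genes, so non-overlap alone says little here. The median log2 fold change of the 10 was -0.15, beside -0.01 over all genes tested, and it ran from -0.61 (without WT C) to 0.041 (without Foxp3-DTR C) when 1 library was left out.

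**Figure D1:**
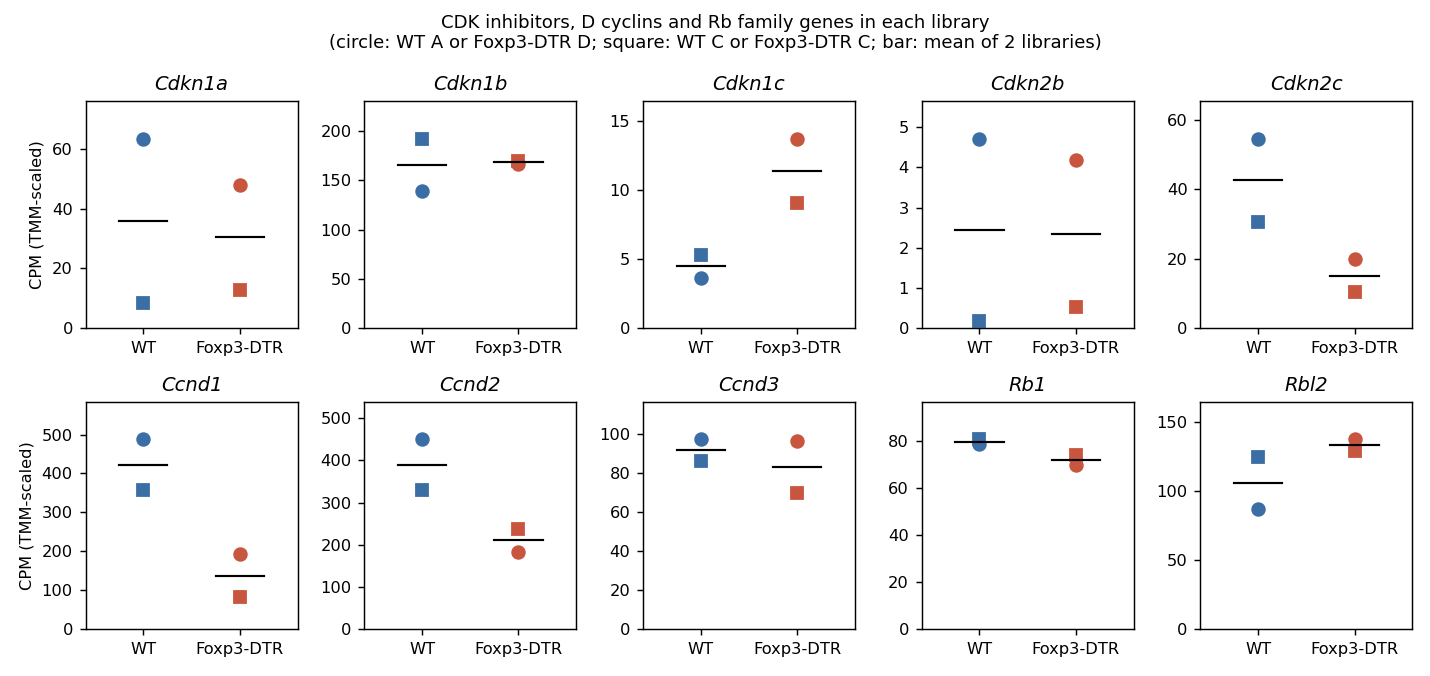
CPM of each of the 10 genes in each library, with WT in blue, Foxp3-DTR in red, circles for WT A and Foxp3-DTR D, squares for both replicates C, the bar at the mean of 2 libraries and every vertical axis starting at 0. Ccnd1, Ccnd2 and Cdkn2c were lower in both Foxp3-DTR libraries than in both WT libraries and Cdkn1c was higher, whereas Cdkn1a and Cdkn2b split the replicates of each group instead.

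Of the 3 D-type cyclins, which carry growth signals to CDK4 and CDK6, Ccnd1 and Ccnd2 stood lower in Foxp3-DTR and Ccnd3 did not separate the groups. Ccnd1 (mm10 chromosome 7, 144929931 to 144939925) stood at 487 (A) and 357 CPM (C) in WT, against 82.4 (C) and 192 CPM (D) in Foxp3-DTR. Both WT libraries lay above both Foxp3-DTR libraries, and a Foxp3-DTR library was between 1.86 and 5.92-fold below a WT library, depending on the pair. Its mean was 422 ± 92.1 (WT) and 137 ± 77.6 CPM (Foxp3-DTR) (SD, n = 2 each), or -1.62 ± 0.43 (SE) on the log2 scale, and the adjusted p was 0.157 by edgeR and 0.000812 by DESeq2. The Foxp3-DTR replicates themselves differed 2.33-fold. Without Foxp3-DTR D, edgeR called Ccnd1 lower, with a log2 fold change of -2.35 and an adjusted p of 0.00642, where it called 1.64% of all genes lower. Leaving out any of the other libraries gave adjusted p between 0.275 and 0.534.

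Ccnd2 (chromosome 6, 127125162 to 127152193) stood at 449.6 (A) and 329 CPM (C) in WT, against 237 (C) and 183 CPM (D) in Foxp3-DTR. The groups did not overlap, and the replicate order in Foxp3-DTR was the opposite of that for Ccnd1. On the log2 scale the difference was -0.89 ± 0.24 (SE), and the adjusted p was 0.133 by edgeR and 0.00929 by DESeq2. Its unadjusted p in edgeR's fit across all genes, 0.00791, was the smallest of the 10 genes. Ccnd3 (chromosome 17, 47505051 to 47599691) stood at 96.9 (A) and 86.1 CPM (C) in WT, against 69.7 (C) and 95.9 CPM (D) in Foxp3-DTR. Its groups overlapped, and its log2 fold change was -0.14 ± 0.21 (edgeR adjusted p = 0.838).

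Because ratios of counts within a library need no scaling, they show how unequally the D cyclins differed. Ccnd1 had 5.03 counts for each Ccnd3 count in WT A and 4.15 in WT C, but 1.18 (C) and 2.0 (D) in Foxp3-DTR. The groups did not overlap in this ratio, though with 2 libraries against 2 an exact two-sided permutation test cannot go below p = 0.333. Ccnd2 had 4.64 and 3.82 counts for each Ccnd3 count in WT A and C, against 3.40 and 1.91 in Foxp3-DTR C and D. The ratio of Ccnd1 to Ccnd2 was 1.08 in WT A and 1.09 in WT C, and 0.348 (C) and 1.05 (D) in Foxp3-DTR. The balance between Ccnd1 and Ccnd2 in Foxp3-DTR D was therefore close to that of WT, and Foxp3-DTR C stood apart.

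Compared per length (CPM per kb of exon), the 3 D cyclins together reached 162 and 121 CPM per kb in WT A and C, and 50.6 and 71.2 in Foxp3-DTR C and D. Ccnd1 made up 63.8% and 62.9% of this sum in WT A and C, and 34.6% (C) and 57.3% (D) in Foxp3-DTR. Ccnd2 made up 29.4% and 29.0% in WT A and C, and 49.7% (C) and 27.4% (D) in Foxp3-DTR. The share of Ccnd3 was 6.81% and 8.14% in WT A and C and 15.7% and 15.4% in Foxp3-DTR C and D, so its part of the sum was larger in Foxp3-DTR while its own level overlapped between the groups. Their partner kinase gene Cdk4 stood at 438 (A) and 297 CPM (C) in WT, against 202 (C) and 253 CPM (D) in Foxp3-DTR (log2 fold change -0.69 ± 0.25, edgeR adjusted p = 0.259).

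**Figure D2:**
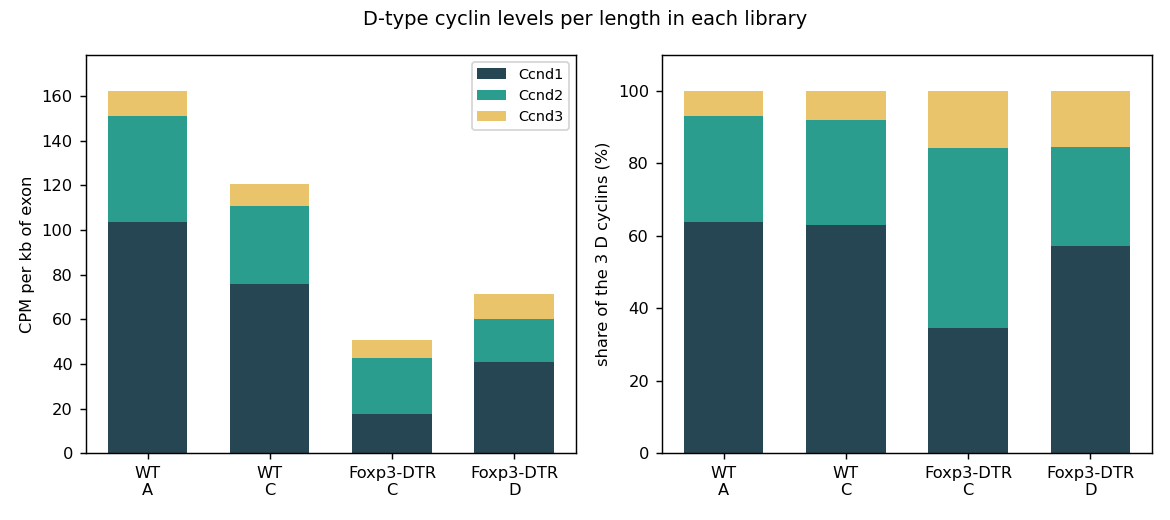
Levels of Ccnd1, Ccnd2 and Ccnd3 in CPM per kb of exon, stacked for each library (left), and each gene's share of that sum in percent (right). The summed bars of both Foxp3-DTR libraries, 50.6 and 71.2 CPM per kb, are shorter than those of both WT libraries, and the share of Ccnd1 is smallest in Foxp3-DTR C.

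The 2 INK4 genes, whose products bind CDK4 and CDK6 in competition with D cyclins, differed in pattern: Cdkn2c separated the groups and Cdkn2b separated replicates. Cdkn2c (chromosome 4, 109660876 to 109667189) stood at 54.6 (A) and 30.7 CPM (C) in WT, against 10.5 (C) and 19.8 CPM (D) in Foxp3-DTR. Both Foxp3-DTR libraries lay below both WT libraries, by between 1.55 and 5.21-fold depending on the pair. On the log2 scale the difference was -1.49 ± 0.42 (SE), and the adjusted p was 0.155 by edgeR and 0.0192 by DESeq2. Without Foxp3-DTR D it passed in edgeR (log2 fold change -2.02, adjusted p = 0.048). The edgeR adjusted p was 0.372 without WT A, 0.0775 without WT C and 0.542 without Foxp3-DTR C, so that call rested on leaving out 1 library. This brake was thus lower in the same libraries as Ccnd1 and Ccnd2. In both groups the higher replicate for Cdkn2c and for Ccnd1 also had the higher suprabasal marker sum (10281 CPM in WT A and 8587 CPM in Foxp3-DTR D). That replicate had higher sebaceous gland and leukocyte marker sums too. In Foxp3-DTR D, however, Cd68 alone gave 3.61 of the 3.97 CPM of the leukocyte sum. The sebaceous gland markers Fasn and Pparg were lower in Foxp3-DTR D than in Foxp3-DTR C. The share of counts in the read counter's special rows, mostly reads aligned to more than 1 place, was larger in the higher replicate of both groups. The part of any of these in either difference was not tested.

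Cdkn2b (chromosome 4, 89306299 to 89311039) was scarce, with 67 (A) and 3 counts (C) in WT, against 8 (C) and 59 counts (D) in Foxp3-DTR. These correspond to 4.72, 0.185, 0.531 and 4.18 CPM, and the exact Poisson 95% interval for WT C runs from 0.0381 to 0.539 CPM, which covers counting error only. WT A exceeded WT C 25.6-fold (exact 95% counting interval 8.38 to 127), and Foxp3-DTR D exceeded Foxp3-DTR C 7.88-fold. The groups overlapped, and the log2 fold change, -0.05 ± 1.53 (edgeR adjusted p = 0.991), ran from -2.18 to 3.63 when 1 library was left out. Of the other INK4 genes, Cdkn2a, the neighbour of Cdkn2b, was at 0 counts throughout, and Cdkn2d stood at 42.5 (A) and 30.6 CPM (C) in WT, against 23.8 (C) and 33.3 CPM (D) in Foxp3-DTR.

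The 3 Cip/Kip genes showed 3 patterns. Cdkn1b, whose product is the main Cip/Kip inhibitor of resting cells in many tissues, had the highest level per length of the 5 inhibitors on average in both groups. It stood at 139 (A) and 192 CPM (C) in WT, against 169.8 (C) and 167 CPM (D) in Foxp3-DTR (chromosome 6, 134920401 to 134925513). Both Foxp3-DTR values lay between the WT values, and the log2 fold change was 0.02 ± 0.21 (edgeR adjusted p = 0.982), with its sign changing under other scalings. Per length it made up between 60.9% and 89.5% of the 3 Cip/Kip transcripts.

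Cdkn1c, an imprinted gene whose product restrains stem cell division in several tissues, had the largest positive fold change of the 10. It stood at 3.66 (A) and 5.29 CPM (C) in WT, against 9.09 (C) and 13.7 CPM (D) in Foxp3-DTR, from 52, 86, 137 and 194 counts (chromosome 7, 143458339 to 143461050). The groups did not overlap, and a Foxp3-DTR library was between 1.72 and 3.75-fold above a WT library. The log2 fold change was 1.35 ± 0.45 (SE), with an adjusted p of 0.222 in edgeR, 0.122 in DESeq2 and 0.242 in limma-voom, so no tool called it. Its level per length was 2.19 ± 0.565 CPM per kb in WT and 5.60 ± 1.62 CPM per kb in Foxp3-DTR (SD, n = 2 each), below Cdkn1a in WT A and Foxp3-DTR D and above it in both replicates C. The order in the replicates C holds for the exon union (Cdkn1a 3553 bp, Cdkn1c 2039 bp). By longest transcript (2080 and 1901 bp) Cdkn1c would lie below Cdkn1a there too.

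Cdkn1a, the inhibitor induced by p53 and by keratinocyte differentiation, differed between replicates far more than between groups. It stood at 63.5 (A) and 8.36 CPM (C) in WT, against 12.8 (C) and 48.0 CPM (D) in Foxp3-DTR (chromosome 17, 29090976 to 29100727). WT A exceeded WT C 7.59-fold and Foxp3-DTR D exceeded Foxp3-DTR C 3.75-fold, with a log2 fold change between groups of -0.24 ± 1.25 (edgeR adjusted p = 0.963). Leaving out 1 library moved that fold change between -1.48 and 1.88, so it carries no direction.

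The order of the libraries for Cdkn1a (WT A, Foxp3-DTR D, Foxp3-DTR C, WT C) was also their order for Cdkn2b and for the summed suprabasal markers. Sebaceous gland markers (2092, 514, 387 and 352 CPM) and leukocyte markers (12.2, 3.97, 3.51 and 1.41 CPM) summed in that order as well. The other marker sums did not. Of the leukocyte sum in Foxp3-DTR D, Cd68 alone gave 3.61 CPM, and Cd68 was highest in that library. Every other leukocyte marker except Cd3g was at 0 counts there. Of the sebaceous gland markers, Mgst1 and Far2 kept the order, whereas Scd1, Pparg, Fasn, Elovl3 and Awat1 did not. The share of counts in the read counter's special rows, mostly reads aligned to more than 1 place, also fell in that order (70.1%, 67.8%, 63.9% and 62.0%). Gene counts per library rose in it, from 13911765 in WT A to 15923154 in WT C. The suprabasal keratin Krt10, the largest part of the suprabasal sum in WT A, stood at 4562, 3796, 458 and 249 CPM in WT A, Foxp3-DTR D, Foxp3-DTR C and WT C. Not every suprabasal marker kept that order. Sbsn, Dsg1a, Dmkn and Lor were lower in Foxp3-DTR C than in WT C, and Lor was highest in Foxp3-DTR D. With 4 libraries no correlation was computed. The part of suprabasal cells, of other cells or of library make-up in the levels of Cdkn1a and Cdkn2b was not tested. In bulk samples, fewer cells of a type and less RNA per cell cannot be told apart.

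**Figure D3:**
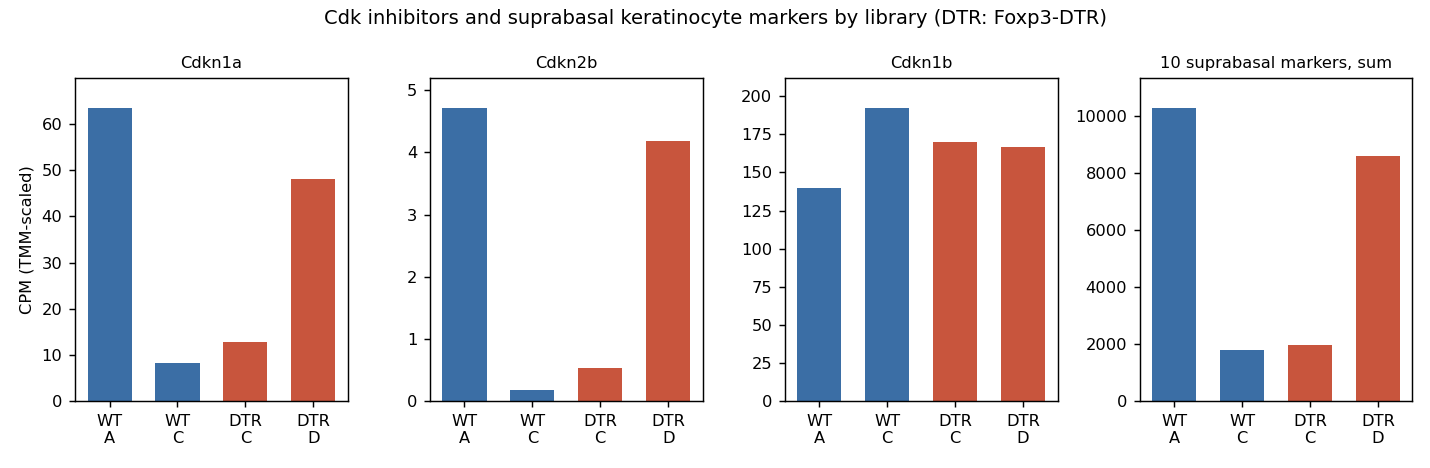
CPM of Cdkn1a, Cdkn2b and Cdkn1b and the summed CPM of 10 suprabasal keratinocyte markers in each library, with WT in blue, Foxp3-DTR in red and axes starting at 0. Cdkn1a, Cdkn2b and the marker sum are all highest in WT A and Foxp3-DTR D and lowest in WT C, while Cdkn1b does not follow that order.

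Start-site sequences are shown for Cdkn1a and Cdkn2b, which had the same order of libraries, and for Cdkn2c, the gene called lower by DESeq2 that has an entry among the RefSeq promoters (GRCm38.p6, 250 bases before to 50 after a start, 5′ to 3′ on the gene's strand). Entries were found for 6 of the 10 genes, in 9 rows, and not for Cdkn1c, Ccnd1, Ccnd2 and Rb1. Cdkn1a and Cdkn2c each have 2 annotated starts, and the counts do not say which was used. In the upstream start of Cdkn1a (chr17:29090729-29091028, plus strand), capitals mark CATGNNNNNNCATG, a pair of cores of a p53 site, from base 203 to base 216. In the downstream start of Cdkn1a (chr17:29093519-29093818, plus strand) and in Cdkn2b (chr4:89310983-89311282, minus strand), capitals mark the GC box GGGCGG. In the Cdkn2c start shown (chr4:109666707-109667006, minus strand), capitals mark the E2F core TTCCCGC. The other Cdkn2c start (chr4:109665323-109665622), not shown, holds none of the E2F cores searched.
Cdkn1a upstream start: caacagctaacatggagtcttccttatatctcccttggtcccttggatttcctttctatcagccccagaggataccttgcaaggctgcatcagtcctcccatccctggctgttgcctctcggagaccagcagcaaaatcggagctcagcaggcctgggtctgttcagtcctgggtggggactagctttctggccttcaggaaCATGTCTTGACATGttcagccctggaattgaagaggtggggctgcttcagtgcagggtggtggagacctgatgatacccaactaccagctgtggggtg
Cdkn1a downstream start: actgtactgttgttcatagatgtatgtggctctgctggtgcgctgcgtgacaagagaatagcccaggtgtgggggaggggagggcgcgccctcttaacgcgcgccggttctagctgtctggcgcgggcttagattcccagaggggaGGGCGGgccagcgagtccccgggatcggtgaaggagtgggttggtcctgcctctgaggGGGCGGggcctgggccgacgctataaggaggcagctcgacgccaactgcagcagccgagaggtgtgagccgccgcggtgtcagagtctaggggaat
Cdkn2b: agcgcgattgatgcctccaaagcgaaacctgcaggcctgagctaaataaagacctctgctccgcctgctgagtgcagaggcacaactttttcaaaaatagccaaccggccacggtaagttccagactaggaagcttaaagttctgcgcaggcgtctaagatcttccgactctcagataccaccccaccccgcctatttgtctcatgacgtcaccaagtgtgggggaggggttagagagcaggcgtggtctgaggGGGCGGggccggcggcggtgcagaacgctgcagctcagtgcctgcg
Cdkn2c: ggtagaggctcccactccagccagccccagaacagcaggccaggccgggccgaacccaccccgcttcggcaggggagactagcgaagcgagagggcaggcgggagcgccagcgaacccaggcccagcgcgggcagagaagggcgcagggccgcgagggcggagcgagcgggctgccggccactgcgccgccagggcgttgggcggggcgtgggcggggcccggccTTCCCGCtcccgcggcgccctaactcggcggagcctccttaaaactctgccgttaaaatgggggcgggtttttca

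Each motif was searched on both strands of all 32851 promoter rows. The paired p53 core was in 0.712% of all rows and in 1 of the 9 rows of these genes, the upstream start of Cdkn1a. The GC box was common, in 35.7% of all rows and in 7 of the 9. The E2F core TTCCCGC was in 4.6% of all rows and in 1 of the 9. Its variants were in 0 of the 9: over all rows, TTGGCGC was found in 2.45%, the variant TTCGCGC in 1.59% and the variant TTGCCGC in 1.81%. The CRE motif TGACGTCA was in 1.79% of all rows and in Cdkn2b alone among the 9, and the E box CACGTG in 7.15% of all rows and, among the 9, in the second Cdkn2c start alone. The motifs can overlap other GC-rich motifs, and a match is a description of letters, not of binding.

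Rb1 and Rbl2, the pocket protein genes, had the smallest differences among the genes whose groups did not overlap. Rb1 (chromosome 14, 73183673 to 73325822) stood at 78.7 (A) and 80.5 CPM (C) in WT, against 74.0 (C) and 69.7 CPM (D) in Foxp3-DTR. Its log2 fold change was -0.15 ± 0.17 (edgeR adjusted p = 0.783), and its replicates differed little in both groups. Rbl2, which encodes the pocket protein typical of resting cells (chromosome 8, 91070057 to 91123844), stood at 87.0 (A) and 125 CPM (C) in WT, against 129 (C) and 137 CPM (D) in Foxp3-DTR. WT C and Foxp3-DTR C were nearly the same, and the log2 fold change was 0.33 ± 0.22 (edgeR adjusted p = 0.590). The third family member, Rbl1, itself an E2F target, fell from 62.1 ± 8.62 to 19.9 ± 4.28 CPM (SD, n = 2 each), or -1.64 ± 0.25 on the log2 scale. Its edgeR adjusted p was 0.044, and it was 0.0622 with WT A left out and 0.142 with Foxp3-DTR C left out. Of the 3 pocket protein genes, edgeR therefore called Rbl1 alone. The estimates for Rb1 and Rbl2 had opposite signs, but neither was called, so a difference in sign between them is not established.

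**Figure D4:**
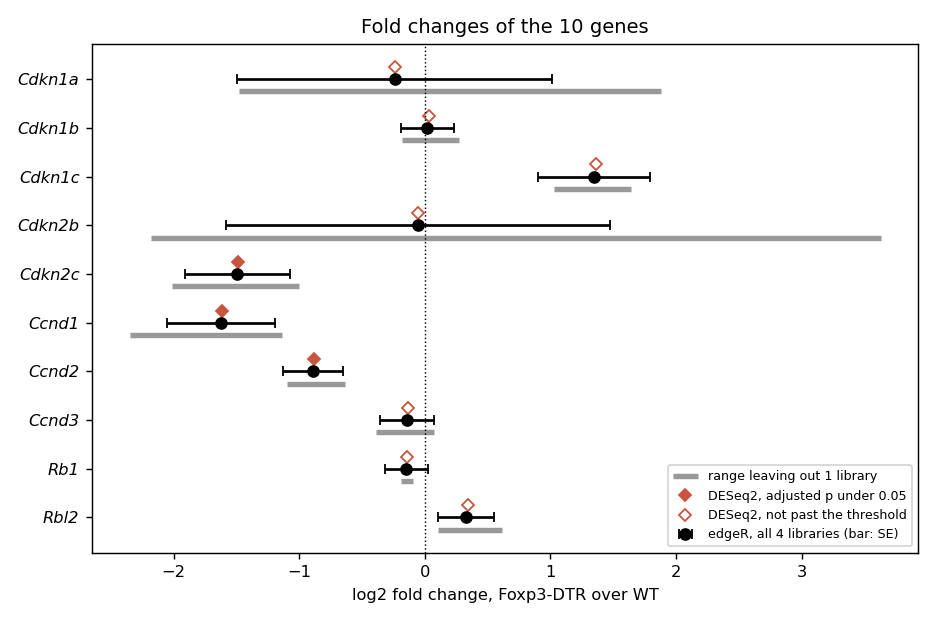
Log2 fold change of Foxp3-DTR over WT for each of the 10 genes, with the edgeR estimate and its standard error in black, the range when 1 library was left out in grey, and the DESeq2 estimate as a diamond, filled where its adjusted p was under 0.05. Cdkn1c, Cdkn2c, Ccnd1, Ccnd2, Rb1 and Rbl2 kept their sign with any 1 library left out, whereas the grey bars of Cdkn1a, Cdkn1b, Cdkn2b and Ccnd3 cross 0.

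Ordered by mean level per length in WT, the genes ran Ccnd1 (89.7 ± 19.6 CPM per kb), Ccnd2 (41.4 ± 9.08), Cdkn1b (36.4 ± 8.20), Cdkn2c (15.9 ± 6.30), Rbl2 (14.0 ± 3.53), Rb1 (13.2 ± 0.212), Ccnd3 (10.4 ± 0.873), Cdkn1a (10.1 ± 11), Cdkn1c (2.19 ± 0.565) and Cdkn2b (1.76 ± 2.31), each as mean ± SD over 2 libraries. Neighbours that did not differ beyond their spread were Ccnd2 and Cdkn1b, Cdkn2c and Rbl2, Rbl2 and Rb1, Ccnd3 and Cdkn1a, Cdkn1a and Cdkn1c, and Cdkn1c and Cdkn2b. Between Rb1 and Ccnd3 the gap exceeded both spreads. This order rests on the exon union as length and differs by longest transcript. Ccnd3 (8775 bp by union, 3858 bp by longest transcript) would then lie above Rb1 (6015 and 4656 bp). Ccnd2 (9409 and 6330 bp) would then lie above Cdkn1b (4552 bp by both) beyond their spreads. In Foxp3-DTR, Cdkn1b came first at 37.0 ± 0.472 CPM per kb, followed by Ccnd1 at 29.1 ± 16.5, which lay within its own spread of it, and Ccnd2 at 22.3 ± 4.03. Cdkn2c, at 5.64 ± 2.46, came near the bottom, next to Cdkn1c at 5.60 ± 1.62. For each Cdkn1b count there were 3.49 and 1.86 Ccnd1 counts in WT A and C, and 0.485 and 1.15 in Foxp3-DTR C and D.

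The surrounding pathway was described with 7 lists, without a test of a list. Over all tested genes, edgeR called 0.426% lower and 0.82% higher, 7.89% were lower at an unadjusted p under 0.05, DESeq2 called 3.97% lower and 3.75% higher, and 6646 of 12920 genes had negative fold changes. Of 28 Rb-E2F target genes, which pocket proteins repress, all 28 had negative fold changes with a median log2 fold change of -1.61, and 2 fell in edgeR's test over all genes, Rbl1 and the replication helicase subunit Mcm6. Mcm6 stood at 259.8 (A) and 234 CPM (C) in WT, against 109.8 (C) and 117 CPM (D) in Foxp3-DTR (log2 fold change -1.13 ± 0.18, edgeR adjusted p = 0.0451). DESeq2 called 24 of the 28 lower (3.97% of all genes), limma-voom 0, and leaving out 1 library moved the edgeR count from 0 (without Foxp3-DTR C) to 12 (without WT C or Foxp3-DTR D), while the number of all genes called lower moved from 14 to 160 and 220 in the same fits. The list of G1 kinases and other inhibitors, 13 tested, also holds cyclins and the pocket protein gene Rbl1. In edgeR 1 of the 13 fell, again Rbl1, and the list's median was -0.36. At an unadjusted p under 0.05 in edgeR, 5 were lower (7.89% of all genes). DESeq2 called 2 lower (3.97% of all genes) and limma-voom 0. Of 12 genes listed for MuvB and the DREAM complex, edgeR called 0. DREAM is the repressor assembled with pocket proteins in resting cells, but the list also holds Mybl2 and Foxm1, which are not its subunits. In edgeR 3 had an unadjusted p under 0.05 (14.6% of all genes): Mybl2, Foxm1 and Tfdp1, all lower. DESeq2 called 2 lower (3.97% of all genes) and limma-voom 0. The list's median, -0.04, was -0.20 without WT A and 0.073 without WT C. The smallest p there was that of Mybl2, at 11.8 ± 1.59 (WT) and 2.65 ± 0.56 CPM (Foxp3-DTR) (edgeR adjusted p = 0.0771).

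Of 17 genes that control the turnover of Cdkn1b protein and D cyclins, edgeR called 0, 2 had an unadjusted p under 0.05, a smaller share than the 14.6% of all genes, DESeq2 called 1 lower (3.97% of all genes) and limma-voom 0. The median, -0.02, was -0.10 without WT A and at 0.001 without WT C. The smallest p was that of Skp2, the F-box protein that targets the Cdkn1b protein for degradation, at 20.1 ± 1.89 (WT) and 7.62 ± 0.647 CPM (Foxp3-DTR) (edgeR adjusted p = 0.0835). Of 18 tested p53 pathway genes 1 rose, the antiproliferative gene Btg2, from 49.2 ± 1.63 to 124 ± 10.4 CPM (log2 fold change 1.33 ± 0.18, edgeR adjusted p = 0.0325), and the list's median was 0.31. That median ran from 0.19 (Foxp3-DTR C left out) to 0.47 (WT A left out). Btg2 did not split the replicates as Cdkn1a did: it stood at 48.0 (A) and 50.3 CPM (C) in WT, against 131 (C) and 116 CPM (D) in Foxp3-DTR.

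Of 17 tested genes for D cyclin transcription and growth signals 2 rose, with a median of 0.13 that ran from -0.11 (WT A left out) to 0.22 (WT C left out). DESeq2 called 5 of them higher (3.75% of all genes) and 1 lower (3.97%), and limma-voom called 2 higher and 0 lower. Mycn, a relative of Myc picked out here after its values were seen, went the other way without passing in edgeR, at 80.5 ± 8.61 (WT) and 21.1 ± 8.93 CPM (Foxp3-DTR) (log2 fold change -1.93, edgeR adjusted p = 0.0523). Myc, a growth regulator, rose from 58.6 ± 8.62 to 212 ± 54.8 CPM (log2 fold change 1.86 ± 0.24, edgeR adjusted p = 0.0323), and Stat3, a cytokine-activated factor, from 233 ± 9.43 to 650.3 ± 123 CPM (1.48 ± 0.21, 0.0411). Of 21 quiescence regulators of follicle stem cells edgeR called 0 and 8 had an unadjusted p under 0.05 (14.6% of all genes). DESeq2 called 2 higher (3.75% of all genes) and 2 lower (3.97%), and limma-voom called 0. The median, -0.10, ran from -0.19 (WT A left out) to 0.15 (WT C left out). The smallest p was that of Lhx2, a bulge transcription factor, at 796 ± 10.9 (WT) and 432 ± 9.80 CPM (Foxp3-DTR) (edgeR adjusted p = 0.0778). Without Foxp3-DTR C, edgeR called 0 genes of any of the 7 lists, and the adjusted p was 0.281 for Mcm6, 0.119 for Btg2, 0.0512 for Myc and 0.14 for Stat3. For Mcm6 it was also 0.116 without Foxp3-DTR D.

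**Figure D5:**
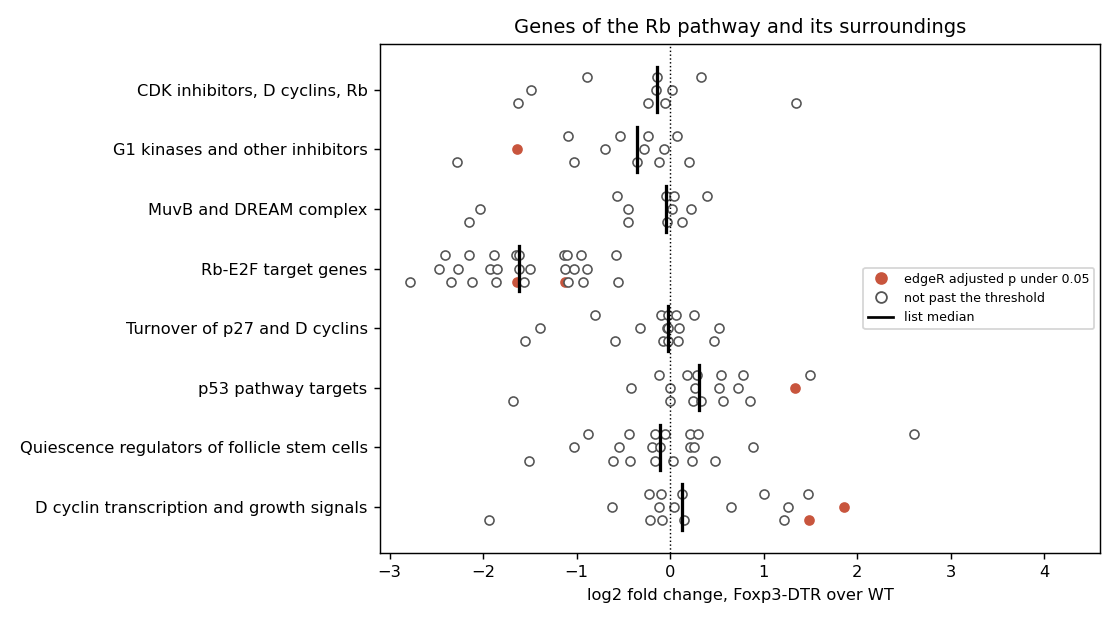
Log2 fold changes of Foxp3-DTR over WT for the 10 genes (top row) and for the tested genes of 7 pathway lists, filled where the edgeR adjusted p was under 0.05, with the black line at each list's median. All 28 Rb-E2F targets lie left of 0 around a median of -1.61, and the 10 genes spread to both sides.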

How the data were processed

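Raw counts of reads per gene symbol, deposited by the authors as whole numbers in 1 table, were used for 4 libraries. Per the submitters' processing notes, the tools include HTSeq 0.6.1, TopHat2 2.0.12 with Bowtie2 2.1.0.0, CASAVA 1.8.2 and, besides, SAMtools 0.1.19.0, on build mm10. The libraries were made with a stranded mRNA kit, per the labels. Strand setting and annotation of the counting were not given in the sources used here. Opposite-strand neighbours (which overlap 7 of the 10 genes in GENCODE M21) may therefore share reads with them. The 5 special rows of the counter held 62.0% to 70.1% of each library's counts, mostly reads aligned to more than 1 place, and were left out.

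The comparison of Foxp3-DTR to WT used edgeR 4.0.16 under R 4.3.3: TMM, filterByExpr, robust glmQLFit and glmQLFTest, Benjamini-Hochberg adjustment over 12920 genes, threshold 0.05, no covariate, n = 2 per group. The SE was derived from the fold change and the F statistic. DESeq2 1.42.0, limma 3.58.1 (voom), other scalings, no filter and leaving out each library were alternatives. Lengths and coordinates are from GENCODE M21 (GRCm38, which mm10 names). A length is the union of a gene's exons. The procedure was tested on simulated data.

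The 10 genes, the 7 pathway and 7 cell type lists, and the rule for named genes (per list, up to 3 called genes, or else the smallest p) were chosen with earlier results of these data known. Genes outside that rule: Cdk4, Cdkn2a, Cdkn2d, Foxm1, Tfdp1 and Mycn were named after their values were seen, as were single cell type markers and the genes in the closing section. The promoter motifs were chosen after the sequences were seen.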

Additional observations from a re-analysis of the deposited data

How the results depend on the processing

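The alternatives gave 90 fold changes for the 10 genes: 75 kept their direction and their side of the threshold, 5 were newly past it and 10 changed sign. The 5 were Ccnd1, Ccnd2 and Cdkn2c in DESeq2 (log2 fold changes -1.61, -0.88 and -1.49) and Ccnd1 and Cdkn2c without Foxp3-DTR D (-2.35 and -2.02). The sign changes were in genes with no call: limma-voom gave Cdkn1a 0.15 and Cdkn2b 0.68, and upper-quartile factors and library sizes alone gave Cdkn1b -0.031 and -0.041. Leaving out 1 library moved Cdkn1a from -1.48 to 1.88, Cdkn1b from -0.18 to 0.27, Cdkn2b from -2.18 to 3.63 and Ccnd3 from -0.38 to 0.071. It moved the number of the 10 genes called lower from 0 to 2, and their median from -0.61 to 0.041.

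Over all genes edgeR called 106 higher and 55 lower, DESeq2 485 and 513, limma-voom 70 and 23, and no filter 277 and 252. Leaving out 1 library gave 66 to 203 higher and 14 to 220 lower. Over the 7 pathway lists together, 3 were called higher and 2 lower in edgeR, 8 and 29 in DESeq2, 5 and 20 with no filter, and 0 lower in limma-voom, with 0 to 7 higher and 0 to 14 lower when 1 library was left out. DESeq2 called 3 of the 10 genes lower. The Ccnd1 share of the D cyclins in WT was 63.3% by exon union, 56.9% by the longest transcript and 46.7% with no length; it ranged from 62.9% to 63.8% between WT libraries and from 34.6% to 57.3% between Foxp3-DTR libraries. The cause of these differences was not tested. No paired analysis was possible because the groups share only replicate letter C. With 2 libraries per group, and 1 where a library is left out, the lone library is assumed to vary like the others.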

Other observations

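The other cyclins and CDKs were taken by symbol after the data had been seen. They include genes that act outside the cell cycle, so their median does not describe the cycle. Of 42 such genes 38 were tested and edgeR called 0, with 8 at an unadjusted p under 0.05, all lower in Foxp3-DTR, where 7.89% of all tested genes were lower at that p. DESeq2 called 5 of the 38 lower and 0 higher, where it called 3.97% of all genes lower and 3.75% higher, and limma-voom called 0. The genes below were picked after their values were seen. Cdk1, the mitotic kinase gene, stood at 126 and 59.4 CPM in WT A and C and at 8.16 and 26.9 CPM in Foxp3-DTR C and D, and Ccnb2 at 62.1, 35.7, 5.44 and 15.6 CPM in the same libraries. Ccnf, an F-box cyclin, stood at 34.3, 21.7, 5.11 and 9.07 CPM (log2 fold change -1.98, edgeR adjusted p = 0.0757). Within both groups these 3 genes were higher in the library that was also higher for Ccnd1 and Cdkn2c. The transcriptional kinase gene Cdk7 stood between 81.2 and 87.4 CPM in all 4 libraries. The median log2 fold change of the 38 genes was -0.02.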
